A study of Mus musculus with 11 samples.

Results

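The genes described here encode parts of elastic fibres and the enzymes that cross-link them: Eln, Fbn1, Fbn2, Mfap5, Fbln1, Fbln2, Fbln5, Lox, Loxl1 and Loxl2. They were taken by symbol from the deposited count table, and all 10 were found among its 21684 genes. RNA was measured by sequencing in NIH/3T3 cells, fibroblasts of an established line from mouse embryos. The 11 libraries came from 4 genotypes, with 2 libraries of WT cells and 3 each of Xap5 KO, Nono KO and Sox5 KO cells. All 4 groups, WT included, were kept without serum for 24 h before RNA was taken, so no library shows the cells in growth medium. The series was designed to compare each knockout with WT in cells induced to form primary cilia. Each KO label was taken as 1 line grown in replicate, because the labels name no separate clones. The effect of a deletion and the history of its line cannot be told apart, and the p-values below measure the spread between these samples, which may be technical.

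Elastic fibres are built from a core of elastin, encoded by Eln, laid down on a scaffold of fibrillin microfibrils. Fibrillin-1 and fibrillin-2 form the microfibrils and MFAP5, also called MAGP-2, binds to them, while fibulins bridge elastin, microfibrils and the surrounding matrix. Lysyl oxidases are copper-dependent enzymes that oxidise lysines of elastin and collagen so that the chains become cross-linked, and fibulin-5 helps to bring tropoelastin and LOXL1 to the fibre.

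Depth ran from 30205878 to 43498383 counts per library. A gene was tested where edgeR's expression filter, with a minimum count of 10, kept it, which left 13332 genes. Each targeted gene was lower in its own knockout than in WT: Fam50a, the mouse symbol of Xap5, stood at 62.9 to 64.8 CPM (counts scaled to a common library size) in WT and 7.49 to 7.91 CPM in Xap5 KO, and Nono at 350.8 to 357.4 CPM in WT and 27.6 to 34.0 CPM in Nono KO. Sox5 stood at 45.9 to 49.7 CPM in WT and 12.6 to 13.9 CPM in Sox5 KO, but also at 11.9 to 15.02 CPM in Xap5 KO and 7.01 to 8.75 CPM in Nono KO. All 9 tested genes of the Y chromosome were lower in all 3 knockouts, and WT is the reference of every comparison in which that was seen.

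All 12 of 12 fibroblast markers passed the filter, though Fap had a mean of only 0.068 CPM in WT. The summed level of the 12 ran from 10684 to 10978 CPM in WT, 10770 to 11232 in Xap5 KO, 29035 to 34665 in Nono KO and 14237 to 14880 in Sox5 KO. These sums hide changes in both directions. By the calls defined below, 5 markers were higher and 4 lower in Xap5 KO, 10 and 0 in Nono KO, and 8 and 3 in Sox5 KO. The shares of all tested genes called either way are also given below. The 9 smooth muscle markers summed to 197.4 to 205.5 CPM in WT against 1709 to 2103 in Xap5 KO, 2514 to 3014 in Nono KO and 2993 to 3345 in Sox5 KO, mostly through Acta2. By the same calls, 5 of these markers were higher and 2 lower (Smtn and Synpo2) in Xap5 KO. In Nono KO 8 were higher and 0 lower, and in Sox5 KO 6 were higher and 1 lower (Cnn1). Myh11 was not called against WT in any knockout. All 7 epithelial and all 6 adipocyte markers lay under 1 CPM in every library, as did 5 of 8 endothelial markers, among them Pecam1 and Cdh5. The summed levels ran from 3.30 to 14.5 CPM for the 7 macrophage markers, from 4.69 to 35.8 CPM for the 8 endothelial markers and from 106.1 to 344.8 CPM for the 7 chondrocyte markers. The chondrocyte sum was almost all Sox9, at a mean of 340.8 CPM in WT and 106.1 CPM in Sox5 KO. Of the 7 chondrocyte markers, 5 lay under 1 CPM in every library. In such bulk libraries, fewer cells of a type and less RNA per cell cannot be told apart. The part that the fibroblast and smooth muscle markers play in the results below was not tested.

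Of the 10 genes, 8 were tested, and Fbn2 and Loxl2 fell below the filter. Eln passed it through the WT libraries, where it was highest. A gene is called changed here where its adjusted p, taken over all tested genes, is under 0.05. Nono KO showed the broadest change. There Fbn1, Mfap5, Fbln1, Fbln2, Fbln5, Lox and Loxl1 were higher than in WT and Eln was lower. Among all tested genes of Nono KO, 48.6% were called, 23.5% higher and 25.1% lower. In Xap5 KO 6 of the 8 tested members were higher (Fbn1, Mfap5, Fbln1, Fbln5, Lox and Loxl1) and Eln was lower. There 45.5% of all tested genes were called, 23.2% higher and 22.3% lower. In Sox5 KO 3 were higher (Fbn1, Mfap5 and Loxl1) and 3 were lower (Eln, Fbln2 and Fbln5), where 60.9% of all tested genes were called, 30.6% higher and 30.3% lower.

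The median log2 fold change over the 8 tested members was 0.42 in Xap5 KO, 0.00 in Sox5 KO and 1.75 in Nono KO. Over all tested genes the medians were 0.00, -0.01 and -0.02 in the same order. The 3 comparisons use the same WT libraries, so their values are given side by side and are not independent. Fbn1, Mfap5 and Loxl1 were called higher in all 3 knockouts, as were 8.33% of all tested genes. Eln was called lower in all 3, as were 7.61% of all tested genes. Fbln5 was called in opposite directions, higher in Xap5 KO and Nono KO and lower in Sox5 KO, and so was Fbln2 between Nono KO and Sox5 KO. Opposite calls in 2 knockouts occurred for 14.8% of all tested genes.

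**Figure D1:**
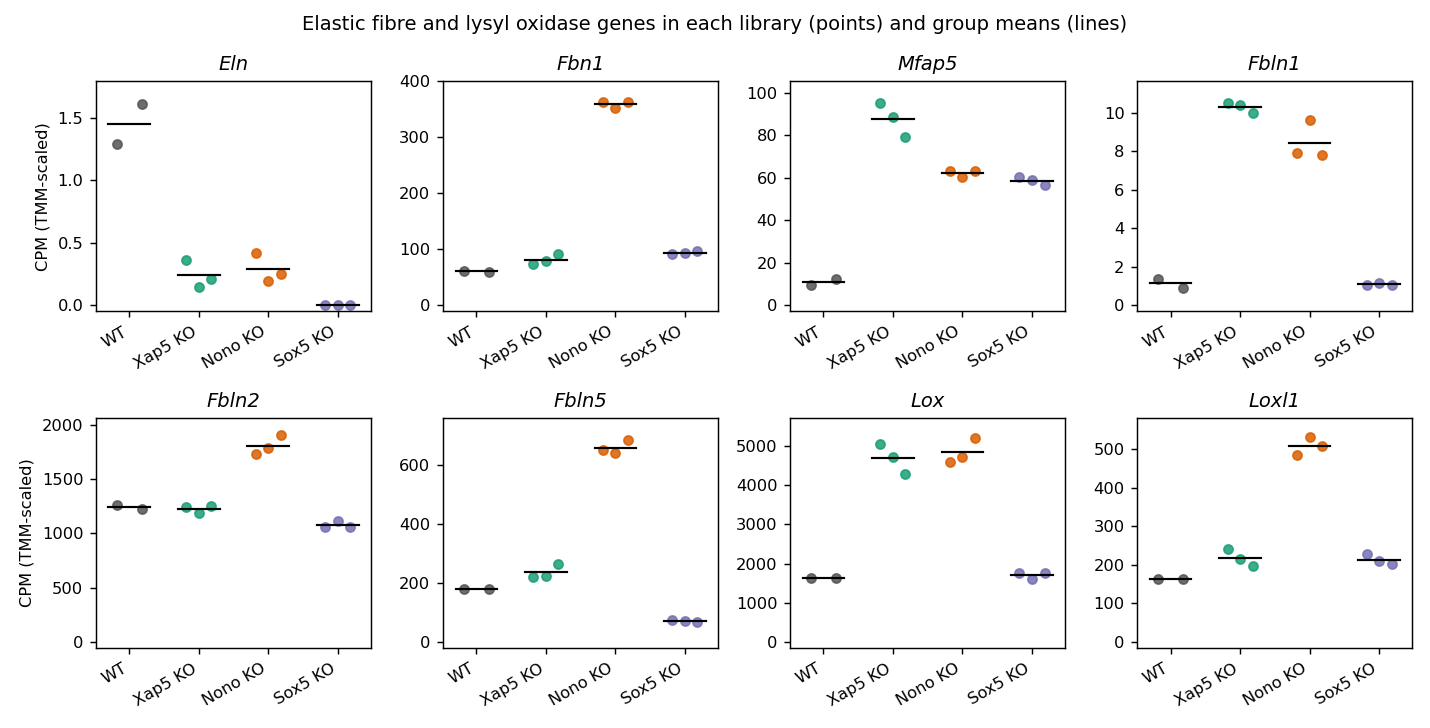
Level of each tested gene in CPM (linear axis, scaled by TMM library factors) in each of the 11 libraries, by genotype. Points are libraries and lines are group means; Mfap5 was at 9.30 and 12.2 CPM in WT and at 56.5 CPM or more in every knockout library, and Eln was at 0 in all 3 Sox5 KO libraries.

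Promoters of 4 of the 10 members are shown, taken from a RefSeq table (build GRCm38.p6). Each is a window from 250 bases before to 50 bases after the transcription start. Only windows that were kept are shown, and a member without one here may still have a promoter in the table. These 4 genes gave 4 different patterns across the knockouts. For Fbln1 and Fbln5, which have 2 starts each in the table, the more upstream start was taken. Fbn1 lies at chr2:125506389-125506688 (minus strand), Fbln1 at chr15:85205699-85205998 (plus strand), Fbln2 at chr6:91212514-91212813 (plus strand) and Fbln5 at chr12:101819070-101819369 (minus strand). Capitals mark matches on either strand to AACAAT, the core that SOX proteins bind, or to GGGCGG, the GC box that Sp1-type factors bind.
Fbn1: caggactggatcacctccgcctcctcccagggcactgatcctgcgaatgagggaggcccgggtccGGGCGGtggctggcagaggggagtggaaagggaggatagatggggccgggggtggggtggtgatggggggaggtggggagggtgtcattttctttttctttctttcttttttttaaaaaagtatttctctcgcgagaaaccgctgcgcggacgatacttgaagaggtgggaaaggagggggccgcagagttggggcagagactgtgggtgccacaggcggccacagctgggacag
Fbln1: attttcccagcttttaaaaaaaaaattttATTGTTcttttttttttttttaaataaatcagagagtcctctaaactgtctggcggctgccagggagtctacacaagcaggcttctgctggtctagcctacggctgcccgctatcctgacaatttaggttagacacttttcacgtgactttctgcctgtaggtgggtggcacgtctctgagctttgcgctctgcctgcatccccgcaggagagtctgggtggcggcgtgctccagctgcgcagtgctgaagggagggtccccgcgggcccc
Fbln2: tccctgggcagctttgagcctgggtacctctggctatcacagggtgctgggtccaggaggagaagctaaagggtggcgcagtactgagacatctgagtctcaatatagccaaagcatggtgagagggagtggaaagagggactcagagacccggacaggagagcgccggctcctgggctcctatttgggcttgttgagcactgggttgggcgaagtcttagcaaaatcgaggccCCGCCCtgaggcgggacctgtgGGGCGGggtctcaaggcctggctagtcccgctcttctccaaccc
Fbln5: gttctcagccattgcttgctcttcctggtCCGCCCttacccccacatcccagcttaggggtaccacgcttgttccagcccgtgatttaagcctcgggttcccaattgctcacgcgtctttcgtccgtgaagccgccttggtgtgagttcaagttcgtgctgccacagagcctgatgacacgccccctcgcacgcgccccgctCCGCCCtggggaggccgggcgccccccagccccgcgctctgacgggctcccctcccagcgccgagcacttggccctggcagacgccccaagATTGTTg
AACAAT occurred 1 time in the Fbln1 window, at -221 from the start, and 1 time in that of Fbln5, at 43, and it was not in those of Fbn1 and Fbln2. The motif was in 10.7% of all 32851 windows of the table. GGGCGG occurred 1 time for Fbn1, 2 times for Fbln2 and 2 times for Fbln5, and not for Fbln1, and was in 35.7% of all windows. The searched motifs did not overlap each other. TATAAA, found in 13.6% of all windows, and TGANTCA, found in 7.81%, were in none of the 4. These matches are letters in a window and were not measured as bound sites.

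Eln (ENSMUSG00000029675), which encodes tropoelastin, the soluble unit of the elastin core, had few counts and was lower in every knockout than in WT. Its counts were 52 and 71 in the WT libraries, 14, 6 and 8 in Xap5 KO, 17, 8 and 9 in Nono KO, and 0, 0 and 0 in Sox5 KO. Its exons overlap the gene Gm30003 on the opposite strand, and reads of the pair cannot be told apart without strand. No knockout library reached either WT library, and the Xap5 KO and Nono KO libraries overlapped. On the CPM scale the mean level was 1.45 ± 0.227 (SD, n = 2) in WT, 0.237 ± 0.111 (n = 3) in Xap5 KO and 0.288 ± 0.117 (n = 3) in Nono KO.

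The log2 fold change of Eln against WT was -2.60 in Xap5 KO (SE 0.837, adjusted p = 0.0163), a 6.05-fold lower level. In Nono KO it was -2.32 (SE 0.827, adjusted p = 0.0262), a 4.99-fold lower level. Against a floor of 3 counts per library, Eln was at least 15-fold lower in Sox5 KO than in WT, and the fit gave an adjusted p of 2.8e-05. Sox5 KO also lay below the other knockouts: in Xap5 KO Eln exceeded it at least 2.46-fold (adjusted p = 0.00191) and in Nono KO at least 2.97-fold (adjusted p = 0.0011). Between Xap5 KO and Nono KO no difference was called (log2 -0.28, adjusted p = 0.799). At these counts the first 2 calls rested on single libraries. Without WT replicate 1 or 2 the adjusted p for Xap5 KO became 0.0685 or 0.122, and for Nono KO 0.0955 or 0.166. For Nono KO the call was also lost without Nono KO replicate 2 (adjusted p = 0.0681) or replicate 3 (adjusted p = 0.0557), and with the replicate number as a block (adjusted p = 0.062).

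Fbn1 (ENSMUSG00000027204) encodes fibrillin-1, the main structural protein of microfibrils, and its level was highest in Nono KO by a wide margin. It stood at 61.1 and 59.8 CPM in WT, 73.9, 79.6 and 90.9 in Xap5 KO, 362.4, 352.2 and 362.4 in Nono KO, and 91.6, 93.3 and 96.8 in Sox5 KO. The 4 groups did not overlap, and Xap5 KO had the widest spread of the 4. Exons of Fbn1 overlap Gm9913 on the opposite strand. The mean level rose from 60.5 ± 0.857 CPM (SD, n = 2) in WT to 359.0 ± 5.90 CPM (n = 3) in Nono KO, which was 5.94-fold.

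The log2 fold change of Fbn1 against WT was 0.43 in Xap5 KO (SE 0.0715, adjusted p = 4.38e-05), 2.57 in Nono KO (SE 0.0768, adjusted p = 1.26e-16) and 0.64 in Sox5 KO (SE 0.0719, adjusted p = 1.32e-07). The order was therefore Nono KO, Sox5 KO, Xap5 KO and WT. Every neighbour in that order was called different, down to Sox5 KO over Xap5 KO (log2 -0.21 for Xap5 KO against Sox5 KO, adjusted p = 0.00768). That last call was lost when libraries were scaled by their totals alone (log2 -0.14, adjusted p = 0.0805). Under an offset for GC content and transcript length the change of Fbn1 in Sox5 KO was 1.43, that of Xap5 KO against Sox5 KO -0.81 and that of Nono KO against Sox5 KO 1.13 in place of 1.93. Under an offset for the median change of each chromosome its change in Xap5 KO was 0.28.

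Fbn2 (ENSMUSG00000024598) encodes fibrillin-2, known mainly from developing tissue, and was close to absent. It had 0 and 8 counts in the WT libraries, 0, 1 and 0 in Nono KO, and 0 in each library of Xap5 KO and of Sox5 KO. Only WT replicate 2 rose above 3 counts. Without the filter the adjusted p against WT was 0.196 for Xap5 KO, 0.196 for Sox5 KO and 0.395 for Nono KO, so no difference was detectable at this depth.

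Mfap5 (ENSMUSG00000030116), whose product MAGP-2 binds fibrillins, rose in all 3 knockouts, and no gene overlaps its exons in the annotation. It stood at 9.30 and 12.2 CPM in WT, 95.3, 88.8 and 79.1 in Xap5 KO, 63.1, 60.3 and 63.2 in Nono KO, and 60.4, 59.0 and 56.5 in Sox5 KO. Every knockout library lay above both WT libraries, and the Nono KO and Sox5 KO libraries overlapped slightly. The fitted change was 8.13-fold in Xap5 KO (log2 3.02, SE 0.11, adjusted p = 4.14e-15). It was 5.77-fold in Nono KO (log2 2.53, SE 0.108, adjusted p = 4.54e-14) and 5.44-fold in Sox5 KO (log2 2.44, SE 0.108, adjusted p = 6.15e-14).

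Mfap5 was highest in Xap5 KO, above Nono KO by a log2 difference of 0.50 (adjusted p = 4.05e-05) and above Sox5 KO by 0.58 (adjusted p = 4.12e-06). Nono KO and Sox5 KO did not differ beyond their spread (log2 0.09, adjusted p = 0.391), though the offset for GC content and length gave a called difference of 0.22 (adjusted p = 0.0271). Mfap5 and Fbln2 both lie on chromosome 6, whose 629 tested genes had a median log2 change of -0.25 in Xap5 KO, -0.35 in Sox5 KO and -0.19 in Nono KO. Corrected for that median, Mfap5 was higher by 3.30 in Xap5 KO, 2.80 in Sox5 KO and 2.74 in Nono KO.

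Fbln1, Fbln2 and Fbln5 encode fibulins, and each moved in its own way. Fbln1 (ENSMUSG00000006369), a fibulin found in matrix and blood, was low in WT, with 55 and 40 counts, and rose in Xap5 KO and Nono KO. It stood at 1.36 and 0.908 CPM in WT, 10.5, 10.4 and 9.99 in Xap5 KO, 7.92, 9.60 and 7.79 in Nono KO, and 1.05, 1.15 and 1.05 in Sox5 KO. The Sox5 KO libraries lay between the 2 WT libraries, and all libraries of Xap5 KO and Nono KO lay well above them. The rise was 9.06-fold in Xap5 KO (log2 3.18, SE 0.235, adjusted p = 4.8e-10) and 7.43-fold in Nono KO (log2 2.89, SE 0.233, adjusted p = 1.39e-09). In Sox5 KO the log2 change was -0.06 (SE 0.247, adjusted p = 0.847).

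The order for Fbln1 was Xap5 KO, Nono KO, WT and Sox5 KO. The first 2 did not differ beyond their spread (log2 0.29, adjusted p = 0.175), nor did the last 2. Between these pairs the gap was wide, with log2 differences of 3.24 for Xap5 KO and 2.96 for Nono KO over Sox5 KO (adjusted p = 1.92e-11 and 6.48e-11).

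Fbln2 (ENSMUSG00000064080) encodes fibulin-2, which binds fibrillin microfibrils and basement membrane proteins. Per length it was above Fbln1 and Fbln5 in every group. It stood at 1264 and 1220 CPM in WT, 1245, 1184 and 1250 in Xap5 KO, 1733, 1785 and 1904 in Nono KO, and 1056, 1114 and 1061 in Sox5 KO. The Xap5 KO libraries overlapped WT, the Nono KO libraries all lay above and the Sox5 KO libraries all lay below.

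Fbln2 was 1.45-fold higher in Nono KO (log2 0.54, SE 0.0601, adjusted p = 1.87e-07). It was 1.15-fold lower in Sox5 KO (log2 -0.21, SE 0.0591, adjusted p = 0.00478) and was not called in Xap5 KO (log2 -0.02, SE 0.0593, adjusted p = 0.829). The fall in Sox5 KO was smaller than the chromosome 6 median of -0.35. With each chromosome's median as an offset it turned to 0.15 (adjusted p = 0.0452), and the value in Xap5 KO turned to 0.25 (adjusted p = 0.00244). It was also lost with the offset for GC content and length (log2 -0.01, adjusted p = 0.911) and without WT replicate 1 (log2 -0.19, adjusted p = 0.0545), and was -0.32 when libraries were scaled by totals alone.

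Fbln5 (ENSMUSG00000021186) encodes fibulin-5, which is needed for elastic fibre assembly in mice. Its level differed 9.35-fold between Nono KO and Sox5 KO (log2 3.23, or 2.46 with the chromosome offset described below). It stood at 180.6 and 180.1 CPM in WT, 221.0, 224.4 and 265.2 in Xap5 KO, 651.3, 642.7 and 687.9 in Nono KO, and 73.4, 72.2 and 66.2 in Sox5 KO. The 4 groups did not overlap. Against WT it was 3.66-fold higher in Nono KO (log2 1.87, SE 0.0764, adjusted p = 2.19e-14), 1.31-fold higher in Xap5 KO (log2 0.39, SE 0.0724, adjusted p = 0.000138) and 2.55-fold lower in Sox5 KO (log2 -1.35, SE 0.0721, adjusted p = 1.02e-12).

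Between knockouts the log2 difference of Fbln5 was 3.23 for Nono KO over Sox5 KO (adjusted p = 7.67e-19), 1.75 for Xap5 KO over Sox5 KO (adjusted p = 9.14e-15) and -1.48 for Xap5 KO against Nono KO (adjusted p = 9.47e-14). Fbln5 lies on chromosome 12, whose 447 tested genes had a median log2 change of -0.75 in Sox5 KO. With that median as an offset the fall of Fbln5 in Sox5 KO was -0.58 (adjusted p = 1.08e-06), and the difference between Xap5 KO and Sox5 KO was 1.13. The part that the chromosome plays in these values was not otherwise tested.

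**Figure D2:**
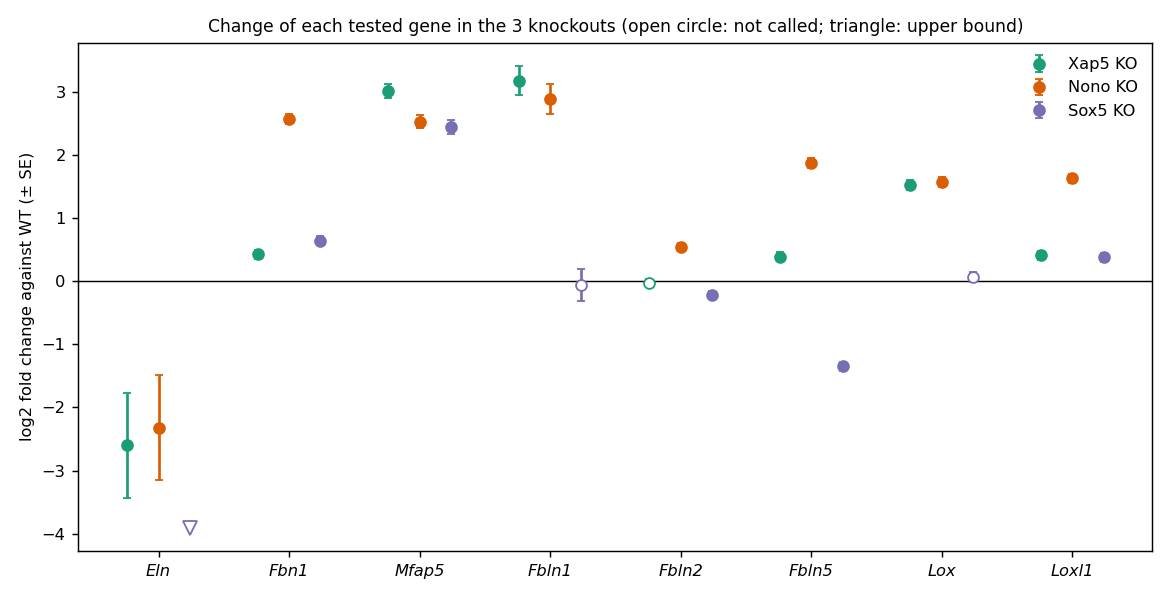
Log2 fold change of each tested gene against WT in the 3 knockouts, with bars of 1 SE from the fit. Filled circles were called, open circles were not, and the open triangle for Eln in Sox5 KO marks the bound of at least 15-fold lower; Fbn1, Mfap5 and Loxl1 lie above 0 in all 3 knockouts, and Fbln5 runs from 1.87 in Nono KO to -1.35 in Sox5 KO.

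Lox (ENSMUSG00000024529), the founding lysyl oxidase, was the most abundant of the 10 genes in every group when levels were compared per length. Its mean level was 342.9 counts per kilobase of transcript on the CPM scale (RPKM) in WT, 989.6 in Xap5 KO, 359.0 in Sox5 KO and 1022 in Nono KO. By RPKM it ranked 79 in WT, 23 in Xap5 KO, 146 in Sox5 KO and 33 in Nono KO among 13293 tested genes with a known length. Lox stood at 1633 and 1618 CPM in WT, 5061, 4727 and 4288 in Xap5 KO, 4590, 4732 and 5221 in Nono KO, and 1747, 1598 and 1761 in Sox5 KO. The libraries thus fell into a low pair of groups, WT and Sox5 KO, and a high pair, Xap5 KO and Nono KO, and the groups overlapped within each pair. Exons of Lox overlap AC161119.1 on the opposite strand.

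Lox was 2.89-fold higher in Xap5 KO than in WT (log2 1.53, SE 0.0779, adjusted p = 1.2e-12) and 2.98-fold higher in Nono KO (log2 1.58, SE 0.0781, adjusted p = 5.12e-13). In Sox5 KO the log2 change was 0.07 (SE 0.074, adjusted p = 0.457). It was 0.25 and called under the offset for GC content and length (adjusted p = 0.00548). The Xap5 KO and Nono KO levels differed by -0.05 (adjusted p = 0.578), or by a called -0.16 with the chromosome offset (adjusted p = 0.0448). Both lay above Sox5 KO, by 1.46 (adjusted p = 1.37e-13) and 1.51 (adjusted p = 5.69e-14). Lox alone took 0.172% to 0.174% of all counts in WT and 0.448% to 0.509% in Xap5 KO.

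Loxl1 (ENSMUSG00000032334) encodes the lysyl oxidase that acts mainly on elastin, and it rose in all 3 knockouts. It stood at 163.7 and 164.1 CPM in WT, 240.8, 215.1 and 196.7 in Xap5 KO, 483.5, 530.0 and 507.2 in Nono KO, and 227.8, 209.0 and 201.8 in Sox5 KO. Every knockout library lay above WT, and the Xap5 KO and Sox5 KO libraries overlapped. Its change was 3.09-fold in Nono KO (log2 1.63, SE 0.0779, adjusted p = 2.9e-13), 1.33-fold in Xap5 KO (log2 0.41, SE 0.0747, adjusted p = 0.000128) and 1.3-fold in Sox5 KO (log2 0.38, SE 0.0748, adjusted p = 0.000168). Xap5 KO and Sox5 KO did not differ beyond their spread (log2 0.03, adjusted p = 0.708), and Nono KO was above Xap5 KO (log2 -1.22 for Xap5 KO against Nono KO, adjusted p = 2.96e-12). Loxl1 lies on chromosome 9, whose 734 tested genes had a median log2 change of 0.35 in Nono KO, and with that as an offset the rise there was 1.27.

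Loxl2 (ENSMUSG00000034205) encodes a lysyl oxidase known for cross-linking basement membrane collagen. It had 0 and 0 counts in WT, 4, 0 and 0 in Xap5 KO, 10, 9 and 4 in Nono KO, and 5, 3 and 8 in Sox5 KO. Against a floor of 3 counts per library in WT the Nono KO level was at least 2.70-fold higher and that of Sox5 KO at least 2.39-fold higher. Without the filter the adjusted p was 0.0868 for Nono KO, 0.0817 for Sox5 KO and 0.321 for Xap5 KO, so Loxl2 was not called in any knockout.

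Summed over Lox and Loxl1 to Loxl4, the lysyl oxidase family stood at 427.9 ± 1.10 RPKM (SD, n = 2) in WT, 1082 ± 88.2 (n = 3) in Xap5 KO, 469.7 ± 18.5 (n = 3) in Sox5 KO and 1216 ± 69.7 (n = 3) in Nono KO. Lox made up 80.1% of that sum in WT, 91.5% in Xap5 KO, 76.4% in Sox5 KO and 84.1% in Nono KO. The rest came mostly from Loxl1, at 6.09% to 13.8% of the group sums, and from Loxl3, at 2.19% to 8.65%. Loxl3, which also belongs to the family, was lower in Xap5 KO (log2 -0.49, SE 0.0629, adjusted p = 1.92e-06) and slightly higher in Nono KO (0.18, SE 0.0634, adjusted p = 0.0267) and Sox5 KO (0.30, SE 0.0637, adjusted p = 0.00034). Loxl4 was higher in Sox5 KO than in WT by 1.15 (SE 0.161, adjusted p = 2.47e-06), and it was also higher there than in Nono KO (-1.25 for Nono KO against Sox5 KO, adjusted p = 1.1e-07) and Xap5 KO (-1.09 for Xap5 KO against Sox5 KO, adjusted p = 8.1e-07).

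**Figure D3:**
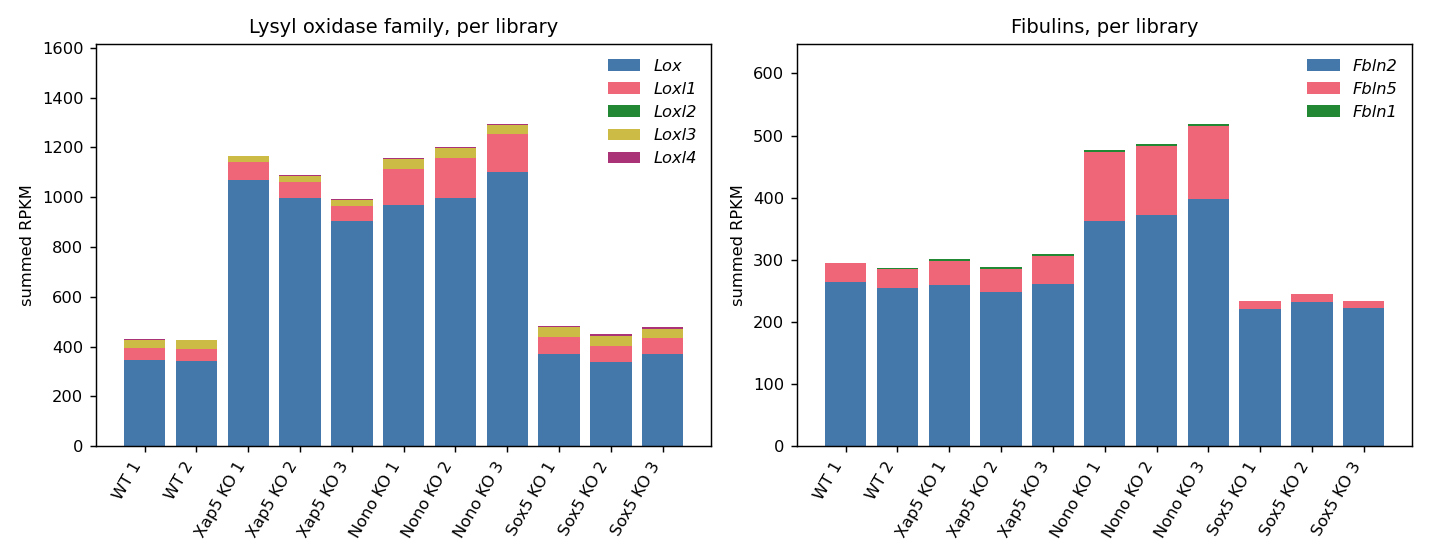
Summed RPKM of the lysyl oxidase family (left) and of Fbln1, Fbln2 and Fbln5 (right) in each of the 11 libraries, stacked by gene. The lysyl oxidase sums of Xap5 KO and Nono KO libraries, from 990.6 to 1292 RPKM, lie above all WT and Sox5 KO libraries, and Fbln5 takes a mean of 5.10% of the sum on the right in Sox5 KO and 23.0% in Nono KO.

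Fbln1, Fbln2 and Fbln5 together stood at 290.8 ± 6.61 RPKM (SD, n = 2) in WT, 299.7 ± 10.3 (n = 3) in Xap5 KO, 237.4 ± 6.95 (n = 3) in Sox5 KO and 493.2 ± 21.9 (n = 3) in Nono KO. Fbln2 made up 89.3% of that sum in WT, 85.5% in Xap5 KO, 94.8% in Sox5 KO and 76.5% in Nono KO. Fbln5 made up 10.6%, 13.5%, 5.10% and 23.0% in the same order, and Fbln1 stayed under 1% in each group, at most 0.939% in Xap5 KO. Compared per length, the mean RPKM in WT ran from 342.9 for Lox and 259.5 for Fbln2 through 49.7 for Loxl1, 30.9 for Fbln5, 5.05 for Fbn1 and 4.32 for Mfap5 to 0.377 for Eln and 0.311 for Fbln1. In Nono KO only the last pair changed places in this order of mean RPKM: Loxl1 was at 153.7, Fbln5 at 113.3, Fbn1 at 29.99, Mfap5 at 25.0, Fbln1 at 2.31 and Eln at 0.0747. All 10 members together took 0.346% to 0.353% of all counts in WT, 0.646% to 0.698% in Xap5 KO, 0.754% to 0.833% in Nono KO and 0.307% to 0.321% in Sox5 KO.

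The knockouts were also set directly against each other. Nono KO exceeded Sox5 KO in 7 of the 8 tested members, and only Mfap5 among them was not called. Of all tested genes, 63.5% were called there, 30.9% higher and 32.6% lower. Xap5 KO exceeded Sox5 KO in 6 (Eln, Mfap5, Fbln1, Fbln2, Fbln5 and Lox) and lay below it in Fbn1, where 61.6% of all tested genes were called, 31.1% higher and 30.4% lower. The difference in Fbln2 between Xap5 KO and Sox5 KO, 0.19 (adjusted p = 0.00424), was lost with the offset for GC content and length (0.06, adjusted p = 0.275) and with the chromosome offset (0.11, adjusted p = 0.108). Xap5 KO lay below Nono KO in 4 (Fbn1, Fbln2, Fbln5 and Loxl1) and above it in Mfap5, where 53.0% of all tested genes were called, 27.1% higher and 25.9% lower. Eln, Fbln1 and Lox were not called between Xap5 KO and Nono KO.

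The pattern of each tested member over the 11 libraries was compared with that of every other tested gene, by the root mean square (RMS) difference of log2 CPM after centring each gene. For Fbn1 the nearest gene outside the members was Col1a1, the alpha-1 chain of type I collagen, at 0.203, against a spread of Fbn1 itself of 0.992. The nearest to Lox was Foxp1 (0.150), to Loxl1 Fli1 (0.138), to Fbln2 Ube4a (0.0666) and to Fbln5 Cdon (0.197). For Mfap5 it was H1f2 (0.191), for Eln Map3k5 (0.360) and for Fbln1 Dppa2 (0.403). Among the members, the nearest pair was Fbln2 and Loxl1 at 0.382, which exceeds the spread of Fbln2 itself (0.292), and Fbn1 and Loxl1 differed by 0.412. The nearest of all tested genes and the nearest of the few members come from searches of very different size and were not compared. These are descriptions over 11 libraries, and libraries of 1 genotype share a cell line.

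Beyond the members, 55 genes of the elastic fibre pathway were in the table and 42 were tested. In Xap5 KO 15 were higher, 16 lower and 11 not called, with a median log2 change of 0.07. In Nono KO 17 were higher, 9 lower and 16 not called (median 0.01), and in Sox5 KO 21 were higher, 12 lower and 9 not called (median 0.19). These counts stand beside the 45.5%, 48.6% and 60.9% of all genes given above. Where 3 values follow each other below with no group named, they are log2 changes against WT for Xap5 KO, Nono KO and Sox5 KO in that order.

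Among other microfibril-associated genes, 6 of 14 tested were higher and 2 lower in Xap5 KO, 7 and 0 in Nono KO, and 6 and 3 in Sox5 KO. Efemp1, which encodes fibulin-3, was higher by 0.42 in Xap5 KO (SE 0.0808, adjusted p = 0.000256), 1.64 in Nono KO (SE 0.0844, adjusted p = 3.64e-12) and 1.37 in Sox5 KO (SE 0.0835, adjusted p = 2.77e-11). Emilin2 rose by 0.64, 0.75 and 0.90 in the same order, and Adamts6, a matrix metalloprotease that acts on microfibrils, by 0.56, 1.96 and 0.91. The Adamts6 call in Xap5 KO was lost without WT replicate 2 (0.44, adjusted p = 0.11) and with the chromosome offset (0.25, adjusted p = 0.246), and its value in Sox5 KO was 1.39 with the offset for GC content and length.

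Mfap4, a microfibril-associated glycoprotein, moved in opposite directions. It had 29 and 15 counts in WT, 88, 39 and 62 in Xap5 KO, 619, 569 and 622 in Nono KO, and 0, 4 and 0 in Sox5 KO. Its log2 change was 1.60 in Xap5 KO (SE 0.454, adjusted p = 0.00936) and 4.87 in Nono KO (SE 0.461, adjusted p = 3.34e-07), and the former was lost without WT replicate 2 (1.14, adjusted p = 0.117). The fall in Sox5 KO was called (adjusted p = 0.00136), and its fitted size was -3.51, or -7.35 without Sox5 KO replicate 2, the library with all of its counts there. Adamtsl4, which binds fibrillin-1, was lower in Xap5 KO (-0.82) and Sox5 KO (-1.51) and higher in Nono KO (1.52). Thsd4, which encodes ADAMTSL6, had 0 counts in both WT libraries and 59, 69 and 62 in Sox5 KO, at least 28.7-fold higher there. It passed the filter only through Sox5 KO, with 9 counts in total in Xap5 KO and 0 in Nono KO. Thsd4 was picked after these values were seen, so its level in Sox5 KO is a description only.

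The 4 genes of the latent TGF-beta binding protein family encode relatives of the fibrillins that lie along microfibrils. All 4 were lower in Xap5 KO and in Sox5 KO, where 22.3% and 30.3% of all tested genes were called lower. In Nono KO 3 of 4 were lower, where 25.1% of all tested genes were. Ltbp4, which also takes part in elastic fibre assembly, stood at 52.1 and 51.1 CPM in WT, 5.56, 5.72 and 7.78 in Xap5 KO, 6.42, 7.99 and 8.29 in Nono KO, and 31.9, 31.5 and 33.9 in Sox5 KO. All knockout libraries were below WT, and those of Xap5 KO and Nono KO overlapped far below Sox5 KO. The log2 change of Ltbp4 was -3.02 (SE 0.133, adjusted p = 1.04e-13), -2.77 (SE 0.131, adjusted p = 2.54e-13) and -0.67 (SE 0.125, adjusted p = 8.55e-05). Ltbp1 also fell in all 3 (-0.55, -0.39 and -1.0), as did Ltbp3 (-0.60, -0.50 and -0.58). Ltbp2 was lower in Xap5 KO (-0.43) and Sox5 KO (-1.99) and higher in Nono KO (0.71). With the offset for GC content and length the falls in Sox5 KO were -0.29 for Ltbp4, -0.57 for Ltbp1 and -0.22 for Ltbp3, and with the chromosome offset they were -0.97 for Ltbp3 and -1.21 for Ltbp2.

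**Figure D4:**
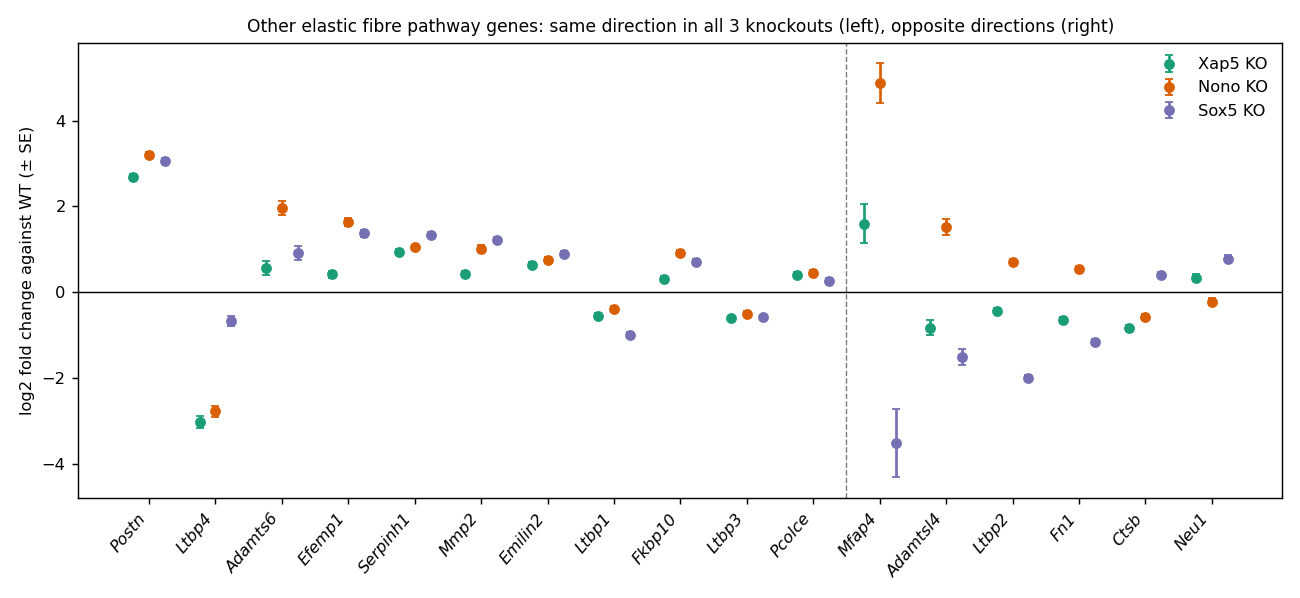
Log2 fold change against WT, with bars of 1 SE, of the pathway genes called in the same direction in all 3 knockouts (left of the dashed line) and of those called in opposite directions (right). Postn lies near 3 in each knockout and Ltbp4 below 0 in each; the Mfap4 point for Sox5 KO rests on 4 counts.

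Of the 9 tested genes for lysyl oxidase processing and copper supply, 3 were higher and 3 lower in Xap5 KO, 3 and 2 in Nono KO, and 5 and 3 in Sox5 KO. Postn encodes periostin, a matrix protein that binds BMP1 and supports activation of lysyl oxidase, and it had the largest rise among the pathway genes called in the same direction in all 3 knockouts. It stood at 131.2 and 127.9 CPM in WT, 806.4, 777.3 and 899.0 in Xap5 KO, 1130 to 1281 in Nono KO and 1054 to 1093 in Sox5 KO. All knockout libraries were far above WT, and Nono KO was above Xap5 KO. The log2 change of Postn was 2.68 (SE 0.0757, adjusted p = 6.45e-17), 3.20 (SE 0.0778, adjusted p = 6.95e-18) and 3.06 (SE 0.0772, adjusted p = 1.32e-17). Pcolce, an enhancer of procollagen processing, rose by 0.41, 0.46 and 0.27, and the last was lost with the offset for GC content and length (0.08, adjusted p = 0.227). Fn1, the gene of fibronectin, on which microfibrils assemble, was lower in Xap5 KO (-0.65) and Sox5 KO (-1.15, or -0.54 with that offset) and higher in Nono KO (0.55).

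Of the 7 genes for tropoelastin secretion and chaperoning, 5 were higher and 1 lower in Xap5 KO, 4 and 1 in Nono KO, and 6 and 0 in Sox5 KO. Serpinh1, which encodes the collagen chaperone HSP47, rose by 0.95, 1.05 and 1.34, and Fkbp10, a chaperone of collagen and tropoelastin, by 0.31, 0.92 and 0.71. Neu1, a sialidase of the elastin receptor complex, was higher in Xap5 KO (0.34, adjusted p = 0.00233) and Sox5 KO (0.78, adjusted p = 7.68e-08) and lower in Nono KO (-0.22, adjusted p = 0.0338). The Neu1 call in Xap5 KO was lost without WT replicate 2 (0.27, adjusted p = 0.0606) and with the chromosome offset (0.16, adjusted p = 0.154). In Nono KO the Neu1 call was lost without either WT replicate (-0.16 without replicate 1 and -0.27 without replicate 2) and without Nono KO replicate 1 (-0.18) or 2 (-0.20). It was also lost there with upper-quartile factors (adjusted p = 0.0517), with only the libraries compared (adjusted p = 0.0837) and with the offset for GC content and length (-0.15, adjusted p = 0.137). Among the 6 elastin-degrading enzymes tested, 1 was higher and 5 lower in Xap5 KO, 1 and 3 in Nono KO, and 2 and 2 in Sox5 KO. Mmp2, a gelatinase, was the one that rose in all 3, by 0.43, 1.02 and 1.22, and Ctsb, a lysosomal protease, was lower in Xap5 KO (-0.83) and Nono KO (-0.58) and higher in Sox5 KO (0.40).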

How the data were processed

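Per the labels' protocols, total RNA came from TRIzol extraction and NEBNext Ultra II libraries were sequenced. The submitters' processing notes name HISAT2 2.1.0, StringTie 1.3.3b, DESeq2 1.12.4 and the build GRCm39 (mm39), with no role for each; the annotation and the handling of strand are not given in the sources used here. The authors deposited 1 table of gene counts, per the file headers, read here as estimated counts in whole numbers, since the value 2 occurs more often than the value 1. All sample columns were used, with 0 left over.

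The 11 libraries were fitted together with edgeR 4.0.16 in R 4.3.3 (TMM factors, filterByExpr at a minimum count of 10 and total of 15, 1 mean per group, the robust quasi-likelihood test). Benjamini-Hochberg adjustment ran over the 13332 tested genes of 21684, of which 5060 were at 0 in every library. The common biological coefficient of variation was 10.6%. The fit was tested on simulated data. CPM used TMM-scaled library sizes, and RPKM divided these by the length of the longest GENCODE M21 transcript (GRCm38). That build differs from the submitters'. The only coordinates printed are those of the promoter windows, which are on GRCm38.p6 and not on the submitters' build. Exons of Eln, Fbn1, Fbn2, Lox and Loxl2 overlap a gene on the opposite strand there, so their counts are uncertain to that extent, and so are those of near-identical copies such as Mfap1a and Mfap1b. Promoters came from a RefSeq table. A count of 3 per library served as the floor for folds against groups at 0, covering counting error only. Even values are in excess, and whether the mates of a read pair were counted separately is not given in the sources used here. If they were, that floor stands for fewer independent fragments, and the lower bounds for Eln, Thsd4 and Loxl2 are then less secure.

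The 8 tested members are covered in each comparison, and Fbn2 and Loxl2, which fell below the filter, only against WT. Pathway genes are named where they were called in the same direction in all 3 knockouts, or among the 6 with the widest opposite calls, and each member's most similar gene is named too. Loxl3, Loxl4 and Thsd4 were added after their values were seen. The members, lists and tests were chosen with earlier results of these data known. Alternatives were other scaling factors, no filter, DESeq2 1.42.0, only the libraries compared, a replicate block, a 2-fold minimum and leaving out each library. Offsets for GC content and length and for the chromosome were chosen after seeing the data.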

Additional observations from a re-analysis of the deposited data

How the results depend on the processing

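Over all alternatives, 940 values of single members against their main fit kept direction and side of the threshold, 12 lost a call, 3 gained one and 2 turned. Both that turned were Fbln2 under the chromosome offset, 0.25 in Xap5 KO and 0.15 in Sox5 KO against WT, and the offset's own construction, a chromosome 6 median below 0, gives this shift. Requiring a 2-fold change in addition left fewer calls by construction. Against WT it left 4 members in Xap5 KO and 3 in Sox5 KO, and 3 for Xap5 KO against Nono KO and 4 for Xap5 KO against Sox5 KO, in place of 7, 6, 5 and 7. Under that rule 10.3%, 17.2%, 11.1% and 15% of all tested genes were called in these comparisons. Of the pathway genes it left 7 in Xap5 KO, 13 in Sox5 KO and 9 in Nono KO, in place of 31, 33 and 26. Over all tested genes the rule called 10.3%, 17.2% and 11.2% against WT in these 3 knockouts. Leaving out single libraries gave 6 to 7 called members in Xap5 KO, 7 to 8 in Nono KO and 5 to 6 in Sox5 KO against WT, and 23 to 31, 21 to 26 and 31 to 34 pathway genes. Scaling by library totals shifted the overall median by -0.16 in Nono KO, -0.11 in Sox5 KO and 0.11 for Xap5 KO against Nono KO. The replicate numbers did not pair the samples, with a correlation from -0.023 to 0.046 over 15 same-numbered pairs. With the number as a replicate block, 6 members were called in Sox5 KO, 7 in Xap5 KO and 7 in Nono KO against WT, and the lost call was Eln in Nono KO (-2.36). Depth limits Eln, Fbn2 and Loxl2, whose counts stayed at 71 or fewer in every library.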
